A study of Homo sapiens with 16 samples.

Results

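The genes described here are 36 genes of the ATF4 stress response, of amino acid synthesis and transport, and of tRNA charging, measured by RNA-seq in A375 xenograft tumors. They were listed by name from 23260 genes in the table, with earlier results of these data known, and 35 of the 36 were among the 13426 genes that reached 1 FPKM in at least 4 tumors and were tested. A375 is a human melanoma cell line that carries mutant BRAF. Immunodeficient NOG mice bore a tumor on each flank, and 16 tumors from 8 mice were sequenced, 4 tumors from 2 mice in each of 4 groups. The control mice received the vehicle. The J mice received JQ1, which blocks BET bromodomain proteins, the V mice received Vemurafenib, which inhibits mutant BRAF, and the J+V mice received both. A375 is 1 cell line, and the host mice lack lymphocytes, so every group is a model without adaptive immunity.

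ATF4 is a transcription factor whose translation rises when the initiation factor eIF2 is phosphorylated under amino acid shortage, unfolded protein or other stress. It binds C/EBP-ATF response elements (CARE) near genes for amino acid synthesis, amino acid uptake and tRNA charging, and together with CHOP, the product of DDIT3, it also drives genes of stress-induced cell death. Aminoacyl-tRNA synthetases join each amino acid to its tRNA, and the names of most cytosolic forms end in ARS. ATF4 is controlled to a large extent at translation, which RNA levels do not show.

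The values are FPKM, fragment counts scaled to transcript length and to the mapped fragments of the library. The FPKM of 1 tumor summed to between 970443 and 1406986, read counts were not used here, and so the depth behind a value is unknown. Differences are given on the log2(FPKM + 0.5) scale, which understates the change of low genes, with the standard error (SE) and the Benjamini-Hochberg adjusted p of 1 limma fit over all 16 tumors and all genes tested. A gene is called lower or higher below an adjusted p of 0.05. Tumors are listed in the order left and right flank of the first mouse, then left and right flank of the second: 2L, 2R, 5L and 5R for control, 26L, 26R, 29L and 29R for J, 16L, 16R, 19L and 19R for V, and 33L, 33R, 34L and 34R for J+V. The p-values take the tumor as the unit, with the mouse as a block, although 2 tumors share each mouse. The correlation within a mouse was estimated at -0.067, so the block did not widen the standard errors. In bulk tumors, fewer cells of a kind and less RNA in each cell cannot be told apart. Melanocyte markers bear on the label of the line. Their summed FPKM was 50.5 to 71.9 in control tumors and 100.1 to 135 in J+V tumors. Of the 10 listed, 6 were tested, and 3 of these were called higher in J+V than in control, where 16.6% of all genes were. S100B was higher by 1.68 (SE 0.198, adjusted p = 4.84e-05 by limma). Of the endothelial markers none was kept, with sums of 1.08 to 2.74 FPKM.

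Promoters were read from RefSeq windows of 300 bases, from 250 before to 50 after a start site (GRCh38.p14), and 30 of the 36 genes had one. The CARE letters TGATGNAA, sought on both strands, occurred in 13 of these 30 genes (43.3%), against 1217 of all 27305 genes with a window (4.46%). A gene counted when any of its windows matched. By window the shares were 25.5% of the 51 windows of these genes and 3.62% of all 35116. The genes were listed around ATF4 and its targets, so a high share can follow from that choice and is no separate result. The 13 genes were ATF3, CHAC1, ASNS, SLC3A2, SLC1A5, SLC1A4, AARS, CARS, GARS, IARS, MARS, NARS and TARS. The form TGATGCAA, chosen after the matches were seen, was in 9 of the 30 (30.0%) and in 1.08% of all genes. The E-box CACGTG was in 5 of the 30 (16.7%) and in 8.77% of all genes. The 4 stretches that follow were picked among the matches, after those were seen, for a synthesis enzyme and 3 synthetases that later results turn on. They are written 5′ to 3′ on the strand of the gene, and capitals mark the match on either strand.
ASNS: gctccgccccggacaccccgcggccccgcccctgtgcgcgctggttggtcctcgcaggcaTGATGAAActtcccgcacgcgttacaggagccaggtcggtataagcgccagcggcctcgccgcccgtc
AARS: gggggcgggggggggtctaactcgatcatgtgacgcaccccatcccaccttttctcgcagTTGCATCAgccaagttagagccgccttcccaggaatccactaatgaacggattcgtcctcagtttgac
CARS: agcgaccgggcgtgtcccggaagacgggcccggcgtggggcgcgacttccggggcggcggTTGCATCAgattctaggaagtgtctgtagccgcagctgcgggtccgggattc
GARS: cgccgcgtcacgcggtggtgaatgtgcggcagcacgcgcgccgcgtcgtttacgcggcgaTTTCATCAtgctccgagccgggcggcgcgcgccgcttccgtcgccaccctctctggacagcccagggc

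The ASNS stretch is chr7:97872409-97872536 on the minus strand, and its match is at -68 from the start site. That of AARS is chr16:70289626-70289753 on the minus strand, with the match at -187. For CARS it is chr11:3057374-3057485 on the minus strand, with the match at -2, and for GARS chr7:30594785-30594912 on the plus strand, with the match at -33. ASNS, CARS and GARS each had a second start site. The match lay in the window of the first site for ASNS and CARS and of the second for GARS. The other window of each had no match. A match of letters is a description and does not show that a factor binds there.

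The first question was how tumors given both drugs differed from control tumors. In J+V tumors 20 of the 35 genes were called lower than in control and 0 were called higher, where 20.5% of all genes tested were called lower and 16.6% higher. By role these were 2 of 8 stress factors and targets, 6 of 10 synthesis enzymes, 3 of 5 transporters and 9 of 12 synthetases. The median log2 difference was -0.44 over the 35 genes and -0.03 over all genes tested, and 34 of the 35 differences were below 0. The J+V tumors lay below every control tumor for 16 of the 35 genes, which held for 16.4% of all genes. They lay below every tumor of the other 3 groups for 9 of the 35, ASNS, PHGDH, MTHFD2, SLC7A5, SLC3A2, CARS, GARS, WARS and YARS, which held for 6.09% of all genes.

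**Figure D1:**
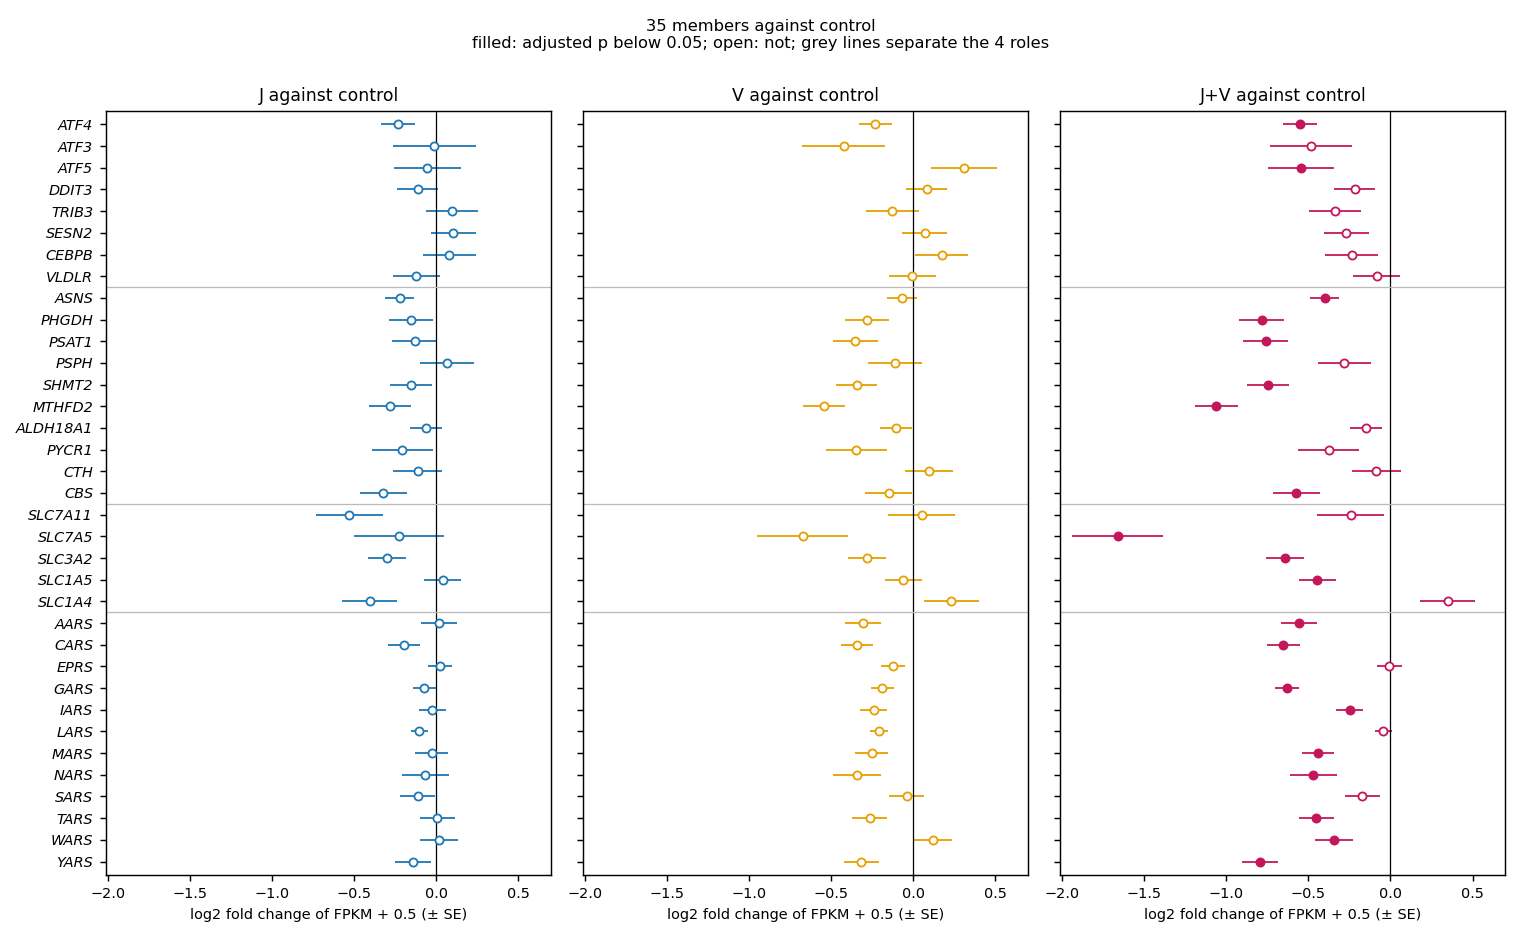
Log2 difference of FPKM + 0.5 from control (x axis) for the 35 tested genes in J, V and J+V tumors, with bars of 1 SE, 4 tumors in a group. Filled points passed an adjusted p of 0.05: 0 genes in J, 0 in V and 20 in J+V, all to the left of 0.

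ATF4 itself (chr22:39915700-39918688, plus strand, hg19) was the most abundant of the 36 in control tumors. Its level was 162, 182, 171 and 190.4 FPKM in the control tumors, 135, 149.7, 156 and 159 in J, 175, 135, 123 and 173 in V, and 115, 116, 126 and 123 in J+V. Each J+V tumor was below each control and each J tumor, whereas V tumor 19L, at 123, lay among the J+V tumors and 16L and 19R among the controls. From 176 ± 12.55 FPKM in control (SD, n = 4) it was 120.0 ± 5.21 in J+V, a log2 difference of -0.55 (SE 0.101, adjusted p = 0.000924 by limma). ATF5, a related stress factor, was 2.57, 2.61, 1.18 and 3.36 FPKM in control, 1.75, 2.25, 2.61 and 2.28 in J, 2.60, 2.74, 2.85 and 3.85 in V, and 1.34, 1.60, 1.06 and 1.76 in J+V. The control tumor 5L lay among the J+V tumors, so those groups overlapped. Its difference of -0.54 (SE 0.203, adjusted p = 0.0469 by limma) was no longer called in 22 of the 35 alternative settings in which it was tested.

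Neither DDIT3 nor TRIB3 was called. DDIT3, which encodes CHOP, was 9.70, 12.05, 9.09 and 12.8 FPKM in control, 12.4, 9.35, 9.36 and 9.04 in J, 11.4, 14.1, 9.58 and 11.2 in V, and 9.26, 8.54, 9.77 and 9.40 in J+V. All 4 groups overlapped, and the J+V difference of -0.22 had an adjusted p of 0.189 by limma with a 95% interval of -0.49 to 0.05. DDIT3 and MARS lie on opposite strands and share 982 bases (chr12:57910371-57911352, hg19), and the sources used here do not say whether counting used strand. TRIB3, a pseudokinase that CHOP and ATF4 induce, was 3.14, 3.76, 4.16 and 4.56 FPKM in control, 3.58, 4.59, 4.65 and 3.96 in J, 3.84, 3.03, 2.59 and 4.91 in V, and 2.38, 3.80, 2.90 and 2.91 in J+V. Its groups overlapped as well, with a J+V difference of -0.34 (adjusted p = 0.112 by limma). ATF3, SESN2, CEBPB and VLDLR had J+V differences of -0.48, -0.27, -0.24 and -0.08, and none passed the test. CHAC1, which degrades glutathione, did not reach the filter and was not tested: its means were 0.494 ± 0.108 FPKM in control, 0.450 ± 0.0517 in J, 0.396 ± 0.151 in V and 0.285 ± 0.168 in J+V (SD, n = 4).

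**Figure D2:**
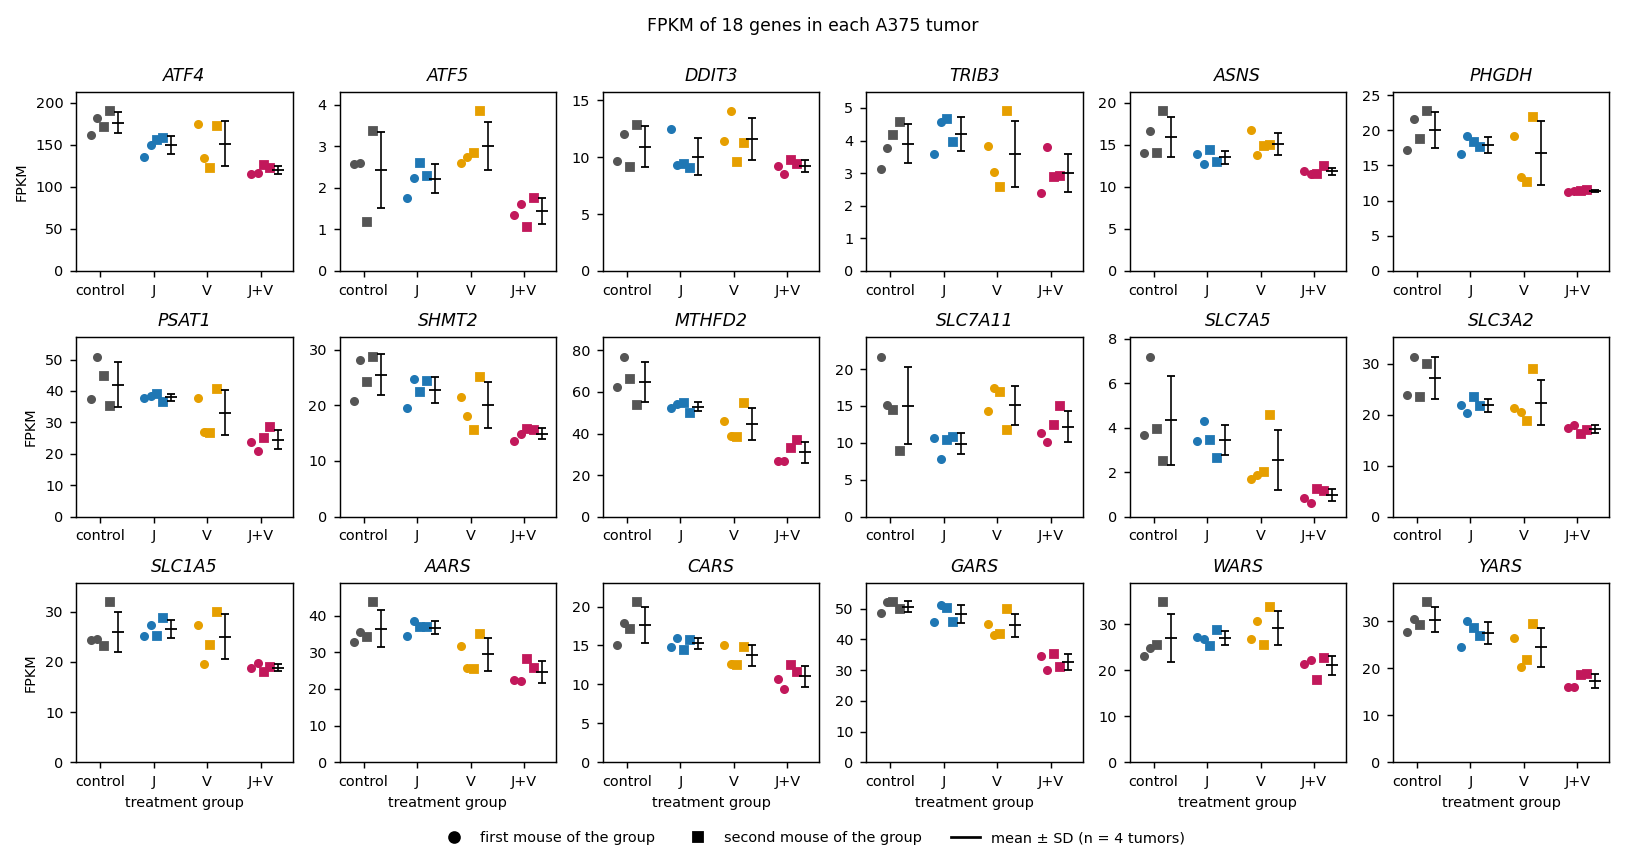
FPKM (y axis, from 0) of 18 of the genes in each of the 16 tumors by group, where circles are tumors of the first mouse, squares those of the second, and bars give mean ± SD, n = 4. The J+V tumors of PHGDH sit between 11.22 and 11.51 FPKM, below all other tumors, while the J+V range of DDIT3 overlaps that of each other group.

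Among synthesis enzymes, the 4 largest differences were those of MTHFD2, PHGDH, PSAT1 and SHMT2, of serine synthesis and mitochondrial one-carbon steps. PHGDH, which commits a glycolytic intermediate to serine, was 17.2, 21.6, 18.7 and 22.7 FPKM in control, 16.6, 19.1, 18.3 and 17.6 in J, 19.1, 13.4, 12.6 and 21.9 in V, and 11.22, 11.34, 11.40 and 11.51 in J+V. The J+V tumors were close to each other and below every other tumor. The log2 difference from control was -0.78 (SE 0.135, adjusted p = 0.0006 by limma). PSAT1, the next enzyme of the path, was 37.4, 51.0, 44.8 and 35.1 FPKM in control, 37.8, 38.5, 39.1 and 36.6 in J, 37.9, 27.1, 26.7 and 40.7 in V, and 23.8, 20.9, 25.02 and 28.4 in J+V. Here 2 V tumors, 16R and 19L, fell within the J+V range, and the J+V difference from control was -0.76 (SE 0.138, adjusted p = 0.000858 by limma). PSPH, the last enzyme of that path, was not called (-0.28, adjusted p = 0.193 by limma).

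SHMT2 passes a carbon from serine to folate in mitochondria. It was 20.9, 28.1, 24.1 and 28.8 FPKM in control, 19.6, 24.7, 22.4 and 24.4 in J, 21.4, 18.1, 15.6 and 25.2 in V, and 13.6, 14.9, 15.7 and 15.5 in J+V. Only V tumor 19L, at 15.6, reached the J+V range among the tumors of the other groups, and the difference from control was -0.74 (SE 0.127, adjusted p = 0.00059 by limma). MTHFD2, the next mitochondrial folate enzyme, was 62.5, 77.1, 66.1 and 53.7 FPKM in control, 52.3, 54.4, 54.7 and 49.98 in J, 45.8, 38.8, 38.3 and 54.9 in V, and 26.7, 26.7, 33.1 and 37.05 in J+V. Its J+V tumors were below all others, at 0.480 of control on the FPKM + 0.5 scale (log2 -1.06, SE 0.130, adjusted p = 6.22e-05 by limma). ASNS, which makes asparagine, was 14.0, 16.7, 14.0 and 19.1 FPKM in control, 13.9, 12.8, 14.4 and 13.0 in J, 16.8, 13.8, 14.9 and 14.9 in V, and 11.96, 11.6, 11.6 and 12.4 in J+V. The J+V range again lay below every other tumor, by a smaller step (log2 -0.40, SE 0.0890, adjusted p = 0.00321 by limma). CBS, of the transsulfuration path, was lower by the test (-0.57, adjusted p = 0.00638 by limma). Its level was low, with a mean of 1.25 FPKM in control. The J+V tumors, at 0.588 to 0.814, were all under the 1 FPKM of the filter. ALDH18A1, PYCR1 and CTH were not called (-0.15, -0.37 and -0.09).

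SLC7A5 had the largest log2 difference of the 35 genes. It is the light chain of the LAT1 exchanger, which imports leucine and other large neutral amino acids, and it was 3.65, 7.2003, 3.95 and 2.52 FPKM in control, 3.3996, 4.29, 3.43 and 2.63 in J, 1.71, 1.88, 2.00 and 4.59 in V, and 0.844, 0.633, 1.22 and 1.14 in J+V. Every J+V tumor was below every other tumor, and V tumor 19R stood among the controls while the other V tumors lay between. On the FPKM + 0.5 scale J+V was at 0.316 of control (log2 -1.66, SE 0.276, adjusted p = 0.000491 by limma). SLC3A2, the heavy chain that pairs with SLC7A5 and SLC7A11, was 23.9, 31.4, 23.5 and 30.0 FPKM in control, 21.8, 20.2, 23.4 and 21.7 in J, 21.3, 20.4, 18.8 and 28.9 in V, and 17.3, 18.01, 16.2 and 16.9 in J+V. The J+V tumors were the lowest of all, with a difference of -0.64 (SE 0.115, adjusted p = 0.000797 by limma). SLC1A5, a glutamine transporter, was 24.4, 24.6, 23.1 and 31.9 FPKM in control, 25.1, 27.3, 25.1 and 28.7 in J, 27.3, 19.5, 23.4 and 29.9 in V, and 18.7, 19.7, 17.9 and 18.9 in J+V. V tumor 16R overlapped the J+V tumors, and the difference from control was -0.44 (SE 0.114, adjusted p = 0.00753 by limma).

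The cystine transporter SLC7A11 was not called. Its FPKM was 21.7, 15.1, 14.5 and 8.92 in control, 10.7, 7.81, 10.4 and 10.7 in J, 14.2, 17.4, 16.9 and 11.8 in V, and 11.3, 10.1, 12.4 and 15.0 in J+V. The control tumors alone spanned most of that range, and the J+V difference was -0.24 (adjusted p = 0.371 by limma). SLC1A4, a transporter of alanine, serine and cysteine, was the 1 gene of the 35 with a difference above 0, 0.35 (adjusted p = 0.113 by limma). It was called higher than control only without tumor 33R (0.49, adjusted p = 0.0293 by limma) or without mouse 33 (0.62, adjusted p = 0.0222).

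Of the synthetases, 9 of 12 were called lower in J+V than in control, and GARS had the smallest adjusted p. GARS, for glycine, was 48.6, 52.1, 52.0 and 49.96 FPKM in control, 45.7, 51.3, 50.2 and 45.7 in J, 45.0, 41.5, 41.9 and 49.7 in V, and 34.4, 30.0, 35.4 and 30.9 in J+V. The J+V tumors were well clear of the rest (log2 -0.63, SE 0.0715, adjusted p = 4.06e-05 by limma). YARS, for tyrosine, was 27.7, 30.5, 29.2 and 34.1 FPKM in control, 24.5, 30.1, 28.6 and 26.9 in J, 26.4, 20.4, 21.8 and 29.4 in V, and 15.9, 16.0, 18.5 and 18.8 in J+V. Its difference was the largest of the synthetases, -0.79 (SE 0.107, adjusted p = 0.000119 by limma), with no overlap with any other group. CARS, for cysteine, was 15.1, 17.9, 17.1 and 20.6 FPKM in control, 14.8, 16.0, 14.5 and 15.8 in J, 15.0, 12.66, 12.55 and 14.9 in V, and 10.6, 9.38, 12.54 and 11.6 in J+V. The J+V range ended just under the lowest V tumors, and the difference from control was -0.65 (SE 0.1002, adjusted p = 0.000291 by limma).

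AARS, for alanine, was 32.7, 35.4, 34.2 and 43.7 FPKM in control, 34.6, 38.7, 36.9 and 36.9 in J, 31.6, 25.8, 25.6 and 34.9 in V, and 22.4, 22.2, 28.3 and 25.7 in J+V. V tumors 16R and 19L overlapped the J+V tumors, and J tumors did not (difference from control -0.56, SE 0.110, adjusted p = 0.00153 by limma). WARS, for tryptophan, is also an interferon-induced gene. It was 23.1, 24.8, 25.4 and 34.8 FPKM in control, 27.3, 26.9, 25.2 and 28.8 in J, 26.8, 30.7, 25.6 and 33.7 in V, and 21.4, 22.2, 17.9 and 22.7 in J+V. Every J+V tumor was below every other tumor, by a narrow margin from control tumor 2L, and the difference of -0.34 (SE 0.116, adjusted p = 0.0315 by limma) was lost in 12 of the 36 settings. Genes of the interferon response summed to 338 to 749.7 FPKM in control tumors, 247 to 389 in J, 536 to 1329.7 in V and 247 to 371 in J+V, with 4 of 20 called lower and 1 higher in J+V than in control, a lower share (20%) close to the 20.5% of all genes. Against V, 12 of the 20 interferon genes were called lower in J+V (60%, against 8.31% of all genes) and 0 higher. Against J, 0 were lower and 2 higher, where 18.4% of all genes were lower and 8.67% higher. The part of these genes in the WARS results was not tested.

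MARS, NARS, TARS and IARS, for methionine, asparagine, threonine and isoleucine, were also called lower (-0.44, -0.47, -0.45 and -0.25, adjusted p = 0.00352, 0.019, 0.00471 and 0.0256 by limma). For NARS, TARS and IARS the J+V and control tumors overlapped. Their calls were lost in 6, 1 and 11 of the 36 settings. EPRS, LARS and SARS, for glutamate and proline, leucine and serine, were not called, at -0.01, -0.04 and -0.17. EPRS and LARS were among the most abundant of the 36, at 104 ± 11.97 and 138 ± 2.45 FPKM in control and 103 ± 5.52 and 134 ± 6.12 in J+V (SD, n = 4). Of the genes with a promoter window, 10 of 12 tested with a CARE match were called lower (83.3%) and 8 of 17 without one (47.1%), against 27.7% and 22.2% of all genes with and without it. Most of the tested genes with a match were synthetases, so motif and role were not separated. SHMT2 and YARS, both called lower, had no window and are in neither share. These shares are a description and were not tested.

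Neither drug alone changed a gene of the set past the threshold. In J tumors 0 of 35 genes and 0% of all genes were called against control, the log2 differences ran from -0.53 (SLC7A11) to 0.11 (SESN2), and 7 of the 35 had an unadjusted p under 0.05 (20.0%, against 8.49% of all genes). The lowest adjusted p was 0.486 by limma. In V tumors 0 of 35 and 0% of all genes were called, the differences ran from -0.67 (SLC7A5) to 0.31 (ATF5), and 15 of the 35 had an unadjusted p under 0.05 (42.9%, against 16.1% of all genes). The lowest adjusted p, 0.144 by limma, was shared by MTHFD2 (-0.54, SE 0.130) and LARS (-0.21, SE 0.0522). Without control tumor 5R, MTHFD2, LARS and TARS were called lower in V, without V tumor 19R MTHFD2 was, and without mouse 5 ATF3 was. Both comparisons share the control tumors with that of J+V. Between J and V, 0 of 35 genes and 0.283% of all genes were called.

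The V tumors differed among themselves on the deposited scale. The mean over the 35 genes, as log2(FPKM + 0.5) minus the control mean, was -0.132 for 16L, -0.247 for 16R, -0.278 for 19L and 0.016 for 19R. Tumor 19R was the highest V tumor for 22 of the 35 genes, where it was the highest for 31.2% of all genes, and 19L was the lowest for 17, where it was the lowest for 28.2% of all genes. The order of the V tumors in this mean was that of their FPKM sums, 1383426 in 19R, 1166227 in 16L, 1148117 in 16R and 1033865 in 19L. With a common sum the means were -0.248 in 19R, -0.168 in 16L, -0.263 in 16R and -0.154 in 19L, so that the order of 19L and 19R turned. In J the same mean ran from -0.122 to -0.093, in control from -0.093 to 0.114 and in J+V from -0.504 to -0.364. The J+V tumors lay below all tumors of the other groups in this mean, also with a common sum (-0.785 to -0.464, against -0.290 to 0.171 in the other groups).

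**Figure D3:**
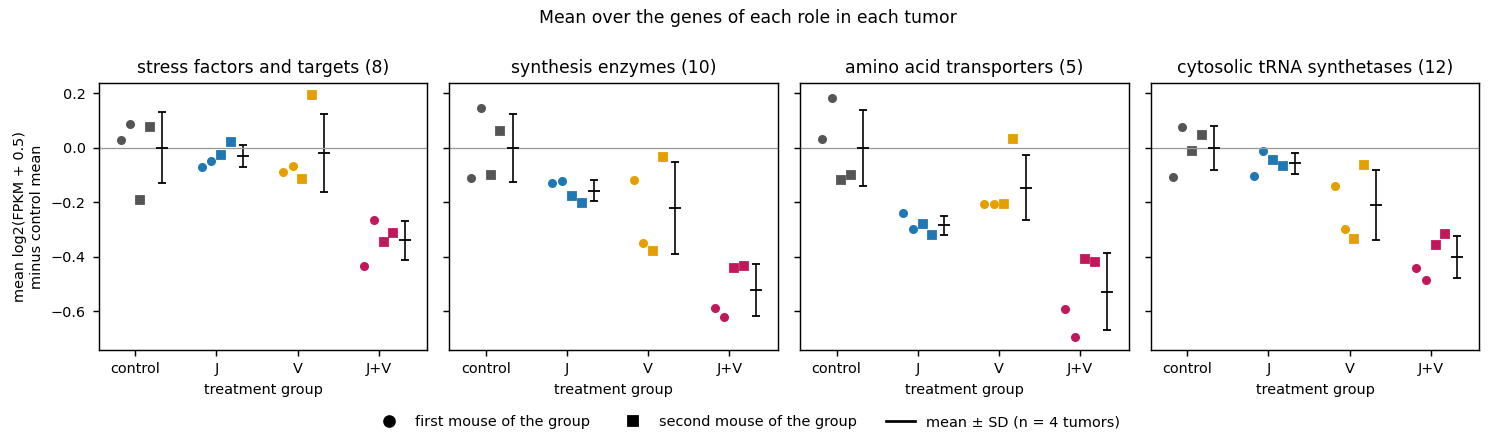
Mean log2(FPKM + 0.5) over the tested genes of each role in each tumor, minus the control mean (y axis), by group. Circles are tumors of the first mouse, squares those of the second, and bars give mean ± SD, n = 4. For synthesis enzymes the J+V tumors lie between -0.62 and -0.43 and the V tumors between -0.38 and -0.03.

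The next question was whether both drugs together differed from each drug alone. Against J, 15 of 35 genes were called lower in J+V and 1 higher, where 18.4% of all genes were lower and 8.67% higher. The lower genes included SLC7A5 (-1.43, SE 0.276), MTHFD2 (-0.78, SE 0.130), YARS (-0.65, SE 0.107), PHGDH (-0.63, SE 0.135), AARS (-0.57, SE 0.110) and GARS (-0.56, SE 0.0715), with adjusted p from 0.000182 to 0.004 by limma, and these 6 were called in every setting in which they were tested (35 for SLC7A5, 36 for the others). SLC1A4 was the gene called higher. It was 0.722, 0.579, 0.501 and 0.491 FPKM in J and 1.14, 0.872, 1.98 and 1.39 in J+V, without overlap (0.75, SE 0.168, adjusted p = 0.00506 by limma). That call was lost with the mean of each mouse and without mouse 29, and the gene was not tested at a mean FPKM of at least 5. ATF4 was called lower too (-0.32, SE 0.101, adjusted p = 0.0305 by limma), a call lost in 12 of the 36 settings, upper quartile scaling and quantile normalization among them. Without mouse 29 the count of lower genes was 7, and without mouse 33 it was 8.

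Against V, 9 of 35 genes were called lower in J+V and 1 higher, where 8.31% of all genes were lower and 4.99% higher. The 9 were SLC7A5 (-0.99, SE 0.276), ATF5 (-0.85, SE 0.203), MTHFD2 (-0.52, SE 0.130), PHGDH (-0.50, SE 0.135), YARS (-0.48, SE 0.107), WARS (-0.46, SE 0.116), GARS (-0.44, SE 0.0715), SLC1A5 (-0.38, SE 0.114) and ASNS (-0.33, SE 0.0890), with adjusted p from 0.002 to 0.0385 by limma. ATF4 missed the threshold (-0.32, SE 0.101, adjusted p = 0.0503 by limma). LARS was higher by 0.17 (SE 0.0522, adjusted p = 0.0478 by limma), a call that was lost in 24 of the 36 settings. The count of lower genes changed with the tumors kept. Among the tumors compared, it was 2 without V tumor 19R, 4 without 33L and 5 without 33R. Without mouse 19 or mouse 33 it was 1. Control and J tumors enter this comparison only through the shared spread and the adjustment over all genes. Still, the count was 2 without control tumor 5L and 14 without 2L, 2R or mouse 2. Without mouse 26 or mouse 29 it was 5. The share of all genes called lower in these fits is not given here. With the mean of each mouse as the unit the count was 2, PHGDH and GARS, and the other 7 calls were lost. GARS alone was called in every setting. With each tumor scaled to a common sum the count was 20, while the share of all genes called lower also rose, to 19.8%.

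**Figure D4:**
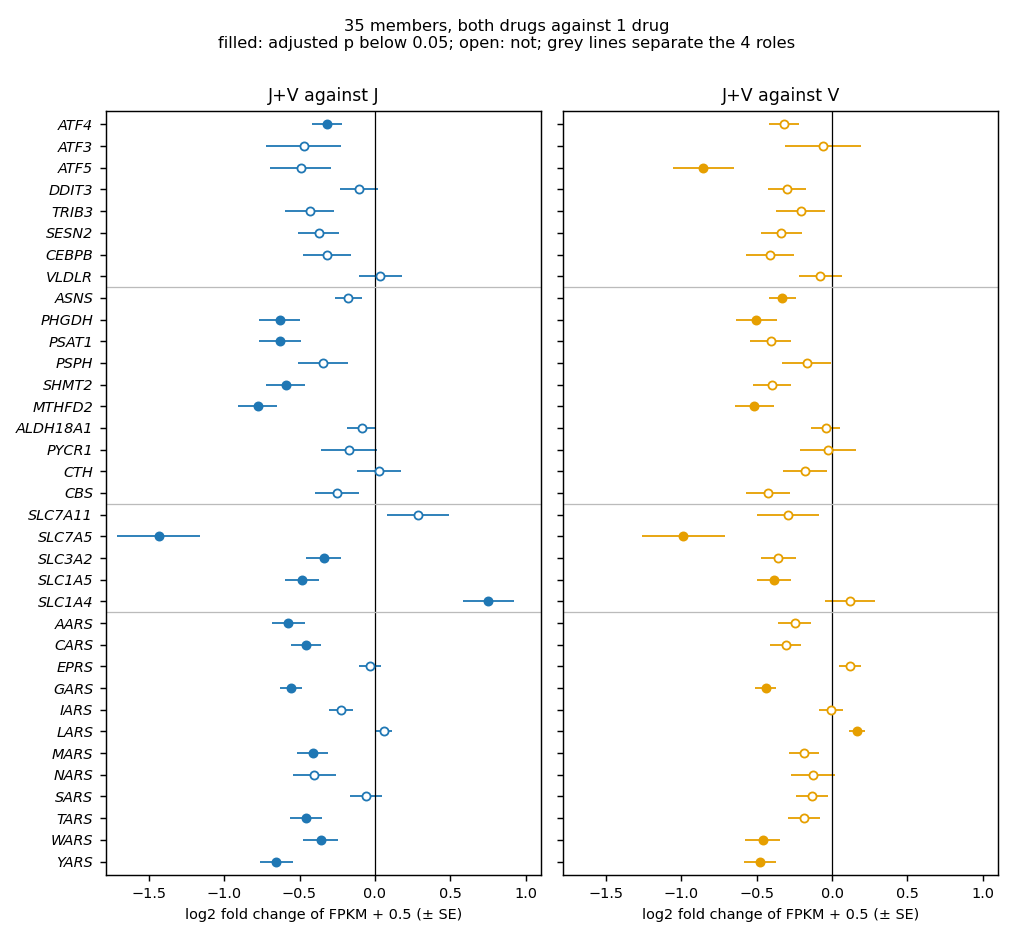
Log2 difference of FPKM + 0.5 (x axis) of J+V tumors from J tumors and from V tumors for the 35 tested genes, with bars of 1 SE, 4 tumors in a group. Filled points passed an adjusted p of 0.05: 15 lower and 1 higher against J, and 9 lower and 1 higher against V.

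Whether the J+V difference departed from the sum of the J and V differences was tested as an interaction, and 0 of 35 genes and 0% of all genes were called, with 9 of the 35 at an unadjusted p under 0.05 (25.7%, against 12.6% of all genes). GARS was at -0.37 (SE 0.101, adjusted p = 0.156 by limma), LARS at 0.27 (SE 0.0739, adjusted p = 0.156) and ATF5 at -0.80 (SE 0.287, adjusted p = 0.263). ATF4 was at -0.09 with a 95% interval of -0.39 to 0.22.

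Other genes of these pathways were read from fixed lists, as counts in J+V against control, where 20.5% of all genes were lower and 16.6% higher. Among 7 kinases and phosphatase subunits of eIF2 and its alpha subunit, 2 were called lower (28.6%), PPP1R15A (-0.59), which brings the phosphatase to eIF2, and EIF2S1 (-0.30), the alpha subunit. Of 18 other ATF4-linked genes 8 were lower (44.4%) and 1 higher, led by the arginine transporter SLC7A1 (-1.01), SESN3 (0.92) and the cell cycle inhibitor CDKN1A (-0.90). Of 22 other folate and one-carbon enzymes 11 were lower (50%) and 0 higher, among them TYMS (-1.11), which makes thymidylate, and GLDC (-0.93), which cleaves glycine. Other cytosolic synthetases and scaffold genes had 6 of 11 lower (54.5%) and 0 higher, with FARSA at -0.54. Mitochondrial synthetases had 4 of 17 lower (23.5%) and 0 higher, with MARS2 at -0.57, and their median difference was -0.08. The shares of the mitochondrial and the eIF2 lists were near that of all genes.

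Genes of proliferation were lower in J+V tumors as well. All 15 of the list were called lower than in control, where 20.5% of all genes were. The median difference of the list was -1.31. Its summed FPKM was 667 to 950.3 in control, 673 to 766 in J, 551 to 739 in V and 227 to 433 in J+V. PLK1 was at -2.04 and MKI67 at -0.99. Fibroblast markers, which could come from host cells, summed to 45.6 to 141 FPKM in control and 74.2 to 136 in J+V, with 3 of 9 called higher (33.3%, against 16.6% of all genes). Of the macrophage markers 0 of 4 tested were called. The part of these in the lower levels of the 20 genes was not tested.

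The scale of the values bears on the counts. With each tumor scaled to a common sum, the median of all genes in J+V against control was -0.22. Of the 35 genes, 28 were lower and 0 higher, where 4727 of all genes (35.2%) were lower and 816 higher. The median of the 35 was then -0.61. Under upper quartile scaling and under quantile normalization 18 of the 35 were lower, where 17.8% and 19.0% of all genes were. Of the 20 genes, 15 were called lower in every setting in which they were tested (35 for CBS and SLC7A5, which a filter on a mean FPKM of 5 removed, and 36 for the others): ATF4, ASNS, PHGDH, PSAT1, SHMT2, MTHFD2, CBS, SLC7A5, SLC3A2, SLC1A5, AARS, CARS, GARS, MARS and YARS.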

How the data were processed

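RNA of 16 A375 tumors was extracted by column and depleted of ribosomal RNA, and libraries were made with the ScriptSeq v2 kit. Per the labels, reads were processed with bcl2fastq, TopHat and Cufflinks on hg19 (versions not given in the sources used here). Values as deposited are FPKM for each gene and tumor, made by the authors, and no read counts were used. The sources used here do not say whether mouse reads were removed. Groups came from the treatment label.

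From the deposited FPKM, log2(FPKM + 0.5) was tested with limma 3.58.1 in R 4.3.3 over genes with at least 1 FPKM in at least 4 tumors (13426 genes), in 1 fit of all 16 tumors with a mean for each of 4 groups, the mouse as a block (correlation -0.067), a mean-dependent prior and 12 residual degrees of freedom. P-values were adjusted over all genes tested, with a threshold of 0.05. The study tested read counts, for which FPKM do not serve. The code was tested on simulated data. All 36 genes are named, and tumor values are given for ATF4, DDIT3, TRIB3, ASNS, PHGDH, SLC7A11, SLC7A5, AARS and WARS and for the 4 called genes of each role with the largest difference. The genes and lists were chosen with earlier results of these data known. Of the pathway lists, up to 3 called genes with the largest difference are named, and a gene that this rule would name is not reported here. Gene positions came from GENCODE on GRCh37, and promoters from RefSeq on GRCh38.p14. The 36 alternatives changed the pseudocount, filter, scaling or model (12), or left out 1 tumor (16) or 1 mouse (8). Figures were drawn with matplotlib 3.10.9. Replicates are tumors, and 2 tumors shared each mouse.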

Additional observations from a re-analysis of the deposited data

Results flagged for a closer look

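In 6 of 144 groups of 4 tumors, 1 tumor stood far from the other 3 by Dixon's criterion, which chance does in about 1 in 20 groups. DDIT3 was 12.4 FPKM in J tumor 26L and 9.04 to 9.36 in the other J tumors. MARS, which overlaps DDIT3 on the other strand, was 31.1 FPKM in the same tumor and 34.97 to 35.5 in the others. SLC7A11 was 7.81 FPKM in J tumor 26R and 10.4 to 10.7 in the others. SLC7A5 was 4.59 FPKM in V tumor 19R and 1.71 to 2.00 in the other V tumors. LARS was 116.6 FPKM in V tumor 19R and 120.6 to 120.8 in the others. In J+V tumor 33R LARS was 125 FPKM, against 137 to 138 in the other J+V tumors.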

How the results depend on the processing

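The count of genes lower in J+V than in control was 16 to 28 over 12 other settings, 17 to 20 without 1 tumor and 15 to 20 without 1 mouse, and the count higher was 0 to 1. Against J, the count lower was 12 to 21, 12 to 19 and 7 to 20 in the same order. The count higher against J was 0 with a mean FPKM of at least 5, 2 with quantile normalization, 0 with the mean of each mouse and 0 to 1 without 1 mouse. Against V, the count lower was 20 with a common sum, 2 with the mean of each mouse and 5 with only the groups compared, 2 to 14 without 1 tumor and 1 to 14 without 1 mouse. The count higher against V was 0 with a common sum, flank as a term, no mouse block, robust moderation, the mean of each mouse or only the groups compared, and 0 to 1 without 1 tumor or mouse. In V against control the count was 0 to 3 without 1 tumor and 0 to 1 without 1 mouse. The counts for J against control, J against V and the departure from the sum were 0 in every setting run. The share of all genes called lower also moved between settings. With a common sum, upper quartile scaling and quantile normalization it was 35.2%, 17.8% and 19.0% against control. In the same order it was 19.8%, 13.0% and 13.8% against J and 19.8%, 7.11% and 8.07% against V. For the other settings the share is not given here. The cause of these shifts was not tested. Genes not called whose difference changed sign in J+V against control under some setting were ATF3, CTH, SLC7A11, EPRS and LARS. No paired analysis between groups was possible because each group had its own mice. Depth is unknown from FPKM, and RNA levels do not measure the translation of ATF4.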
